A study of Brachypodium distachyon with 6 samples.

Results

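The stomatal lineage of *Brachypodium distachyon* is directed by basic helix-loop-helix (bHLH) transcription factors, and the 5 genes described here are *BdSPCH1*, *BdSPCH2*, *BdMUTE*, *BdFAMA* and *BdSCRM2*. They were chosen by name from the gene table of the study and are 5 of 36647 genes in the count table. Bulk RNA-seq was used to ask which genes differ between leaf tissue turned into protoplasts and intact leaf tissue. Protoplasts are cells freed from their walls by enzymes, in this study Macerozyme R-10 together with Cellulase Onozuka RS. All 6 libraries came from the developmental zone of leaves of 3 wk old, soil-grown wild-type plants of the accession Bd21-3, which carry no transgene or mutation. Each group has 3 biological replicates. A protoplast library pools 10 leaf zones and a library of the intact control pools 5.

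In grasses, stomata form in cell files of the leaf base. SPEECHLESS (SPCH) factors start the lineage in an asymmetric division, MUTE acts in the division of the guard mother cell, and FAMA is needed for the guard cells to differentiate. In *B. distachyon*, BdMUTE protein also moves into the neighbouring cells, where it is needed for the formation of subsidiary cells. SPCH, MUTE and FAMA act as dimers with the broadly expressed partner bHLH proteins ICE1 and SCRM2. *BdSPCH1*, *BdSPCH2*, *BdMUTE* and *BdFAMA* are called the stage factors below, and *BdICE1* and *BdSCRM2* the partners.

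The labels of the samples contradict each other. The title and the library name give one group and the treatment entry gives the other group for each of the 6 samples. The groups here follow title and library name and are called the libraries labelled protoplasted and labelled non-protoplasted, so that every direction would be exchanged under the treatment entry. The study states that candidate genes upregulated after protoplasting, with a fold change above 3, were left out. Of the genes it then examined in tissue, *BdGELP1* and *BdSDD1* had log2 fold changes of 3.98 and 5.00 by title. Others were lower, such as *BdGRAS32* at 0.82 and the LRR kinase gene at 1.54. Which label is right was not tested. The libraries held 17482438 to 24621927 counts on genes, and 3 counts corresponded to 0.106 to 0.205 CPM, which sets counts relative to a library size scaled by TMM. Replicate 1 labelled protoplasted stood apart from the other 2 of its group, as the chi-square over genes, divided by its degrees of freedom, was 43.4 and 36.6 against them and 11.3 between those 2. The fold changes of the 5 genes are therefore also given without it. In bulk RNA, fewer cells of a type and less RNA per cell cannot be told apart.

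The stage factors were all higher in the libraries labelled protoplasted, whereas the partner *BdSCRM2* did not pass the test. The difference was largest for *BdSPCH1*, similar in size for *BdSPCH2* and *BdMUTE*, and below 1 on the log2 scale for *BdFAMA*. All 5 genes passed the filter on low counts, but *BdSPCH1*, *BdSPCH2* and *BdMUTE* did so only through the libraries labelled protoplasted. Genes as low as these in both groups were not tested. The quasi-likelihood test of edgeR called 4 of the 5 higher and 0 lower at an adjusted p under 0.05. These counts stand beside a wide background. Of the 23677 genes tested, 38.7% were called higher and 38.3% lower, and the median log2 fold change was 0.042 against 3.69 for the 5 genes. At that threshold, 3 of the 5 had a log2 fold change over 3, as did 5.09% of all genes tested. With a prior count of 2 this was 2 of the 5 genes and 4.32% of all genes, since *BdSPCH2* then stood at 2.88. The 3 genes over 3 are those that passed the filter only through the libraries labelled protoplasted. Their direction was thus fixed once they were tested, and the median of 3.69 is the value of 1 of them, *BdSPCH2*. Setting these values beside those of all genes is therefore a description and no support. Every library labelled protoplasted lay above every other library in CPM for 4 of the 5 genes and for 40.4% of all genes tested.

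**Figure D1:**
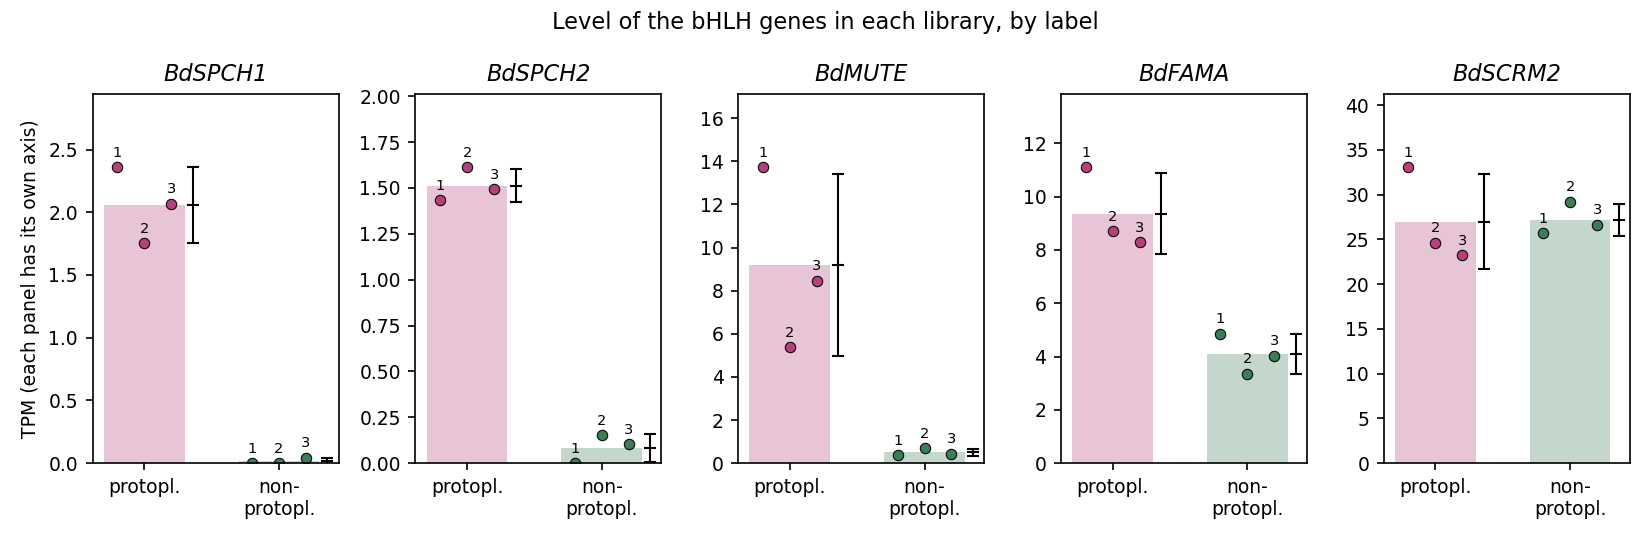
Level of each bHLH gene in TPM (transcript level per gene length, vertical axis, a separate scale in each panel) in the 3 libraries labelled protoplasted and the 3 labelled non-protoplasted. Points are libraries with their replicate number, bars are means and error bars are the SD. The groups do not overlap for the first 4 genes and overlap for *BdSCRM2*.

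Many genes that mark other cell types also differed between the groups, and their part in the results was not tested. The counts below come from few genes and stand beside 38.7% higher and 38.3% lower over all genes tested. Of the epidermis markers, 2 of 3 were higher, with a summed level of 231 to 327 CPM in the libraries labelled protoplasted and 52.4 to 66.8 CPM in the others. *BdPDF1* alone gave 157 to 228 CPM of the first sum and 15.1 to 19.8 CPM of the second. Of the hair and silica cell markers, 12 of 12 were higher, with 1357 to 1867 CPM against 322 to 467 CPM. The mesophyll marker *BdLHCA6* was higher as well, with 50.8 to 58.8 CPM against 27.1 to 30.4 CPM. So was *BdSTOMAGEN-1*, which the study uses as a mesophyll marker too, with 14.9 to 30.9 CPM against 5.67 to 8.73 CPM. Of 7 vasculature markers tested, 5 were higher and 1 was lower, with a sum of 230.3 to 244 CPM against 80.8 to 86.7 CPM over all 8. Most of both sums came from *BdXCP1-like*, with 195 to 208 CPM against 66.6 to 69.4 CPM. Of 5 shoot apex markers tested, 3 were higher, with a sum of 162 to 199 CPM against 42.9 to 53.9 CPM over all 8. Here *BdFEA3* gave most, with 125 to 149 CPM against 27.5 to 35.9 CPM. *BdSLAH2*, which the study uses as a marker of the shoot apex and early vasculature, is counted in neither list. It was lower, with 0.185 to 0.649 CPM in the libraries labelled protoplasted against 36.9 to 40.9 CPM in the others. The meristem genes *BdKN1* and *BdKNAT1-like* had 0 counts in all 6 libraries.

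The 2 *SPCH* genes, which start the lineage, were near absent from the libraries labelled non-protoplasted. *BdSPCH1* (BdiBd21-3.1G0523400) had 53, 45 and 51 counts in replicates 1 to 3 labelled protoplasted, against 0, 0 and 1 in those labelled non-protoplasted. The Poisson intervals of the first 3 counts overlapped, and the groups were far apart. In TPM, which corrects for gene length, this was 2.36, 1.75 and 2.07 TPM against 0, 0 and 0.0446 TPM. Summed over libraries and scaled by library size, 149 counts stood against 1, a ratio of 105 with an exact 95% counting interval of 18.6 to 4178. The interval covers counting error only. The fitted log2 fold change was 6.34 ± 0.58 (SE; edgeR, adjusted p = 6.87e-06), and only 0.482% of all genes tested had a larger one. This fitted value depends on the prior count, since the gene stood at the floor in the libraries labelled non-protoplasted. With a prior count of 2 the value was 4.21. Without replicate 1 labelled protoplasted it was 6.26.

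*BdSPCH2* (BdiBd21-3.3G0131200) had counts of 28, 36 and 32 in the libraries labelled protoplasted, against 0, 3 and 2 in the others. It was thus the lowest of the 5 genes in the first group, with 1.43, 1.61 and 1.49 TPM, and again the groups did not overlap. In the second group it had 0, 0.151 and 0.103 TPM. The summed counts of 96 and 5 gave a ratio of 13.5 with a counting interval of 5.61 to 42.6. The fitted log2 fold change was 3.69 ± 0.50 (SE; edgeR, adjusted p = 9.91e-05), and 3.03% of all genes tested had a larger one. It was 3.76 without replicate 1 labelled protoplasted. With a prior count of 2 it was 2.88, as the gene again stood at the floor in the libraries labelled non-protoplasted. Whether reads shared by the 2 *SPCH* genes were split or lost in counting is not stated, so the separation of the pair is uncertain.

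*BdMUTE* (BdiBd21-3.1G0240400), the guard mother cell factor, was the most variable of the 5 genes among the libraries labelled protoplasted. These held 96, 43 and 65 counts, or 13.7, 5.38 and 8.46 TPM, against 2, 5 and 3 counts in those labelled non-protoplasted, or 0.379, 0.702 and 0.430 TPM. Replicate 1 lay above replicate 2 by more than counting error, with exact 95% Poisson intervals of 77.8 to 117 counts and 31.1 to 57.9 counts. Even so, the lowest library labelled protoplasted was 6.58-fold above the highest of the other group in CPM. The log2 fold change was 3.82 ± 0.48 (SE; edgeR, adjusted p = 5.51e-05), and 3.47 without replicate 1 labelled protoplasted. The summed counts of 204 and 10 gave a ratio of 14.4 with a counting interval of 7.66 to 30.5.

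*BdFAMA* (BdiBd21-3.2G0300000), the guard cell factor, was the only stage factor with a clear level in both groups. It had 221, 198 and 181 counts in the libraries labelled protoplasted, or 11.1, 8.70 and 8.28 TPM. The libraries labelled non-protoplasted had 73, 68 and 80 counts, or 4.86, 3.36 and 4.03 TPM. The groups did not overlap, although the gap was narrow, with the lowest library of the first group 1.35-fold above the highest of the second in CPM. The log2 fold change was 0.91 ± 0.21 (SE; edgeR, adjusted p = 0.00329), a rank passed by 27.7% of all genes tested. Without replicate 1 labelled protoplasted it was 0.82.

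**Figure D2:**
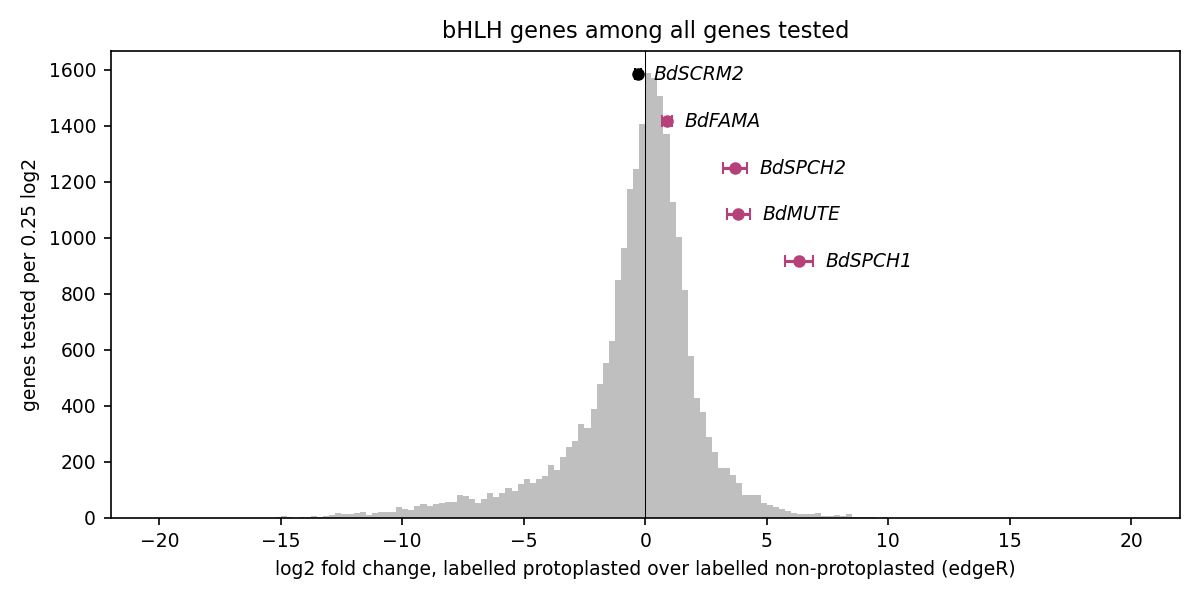
Histogram of the log2 fold change of all 23677 genes tested (horizontal axis, labelled protoplasted over labelled non-protoplasted; vertical axis, genes per bin), with the 5 bHLH genes as points at arbitrary heights and error bars of 1 standard error. *BdSPCH1* at 6.34 lies in the far right tail, *BdFAMA* at 0.91 within the bulk of the genes and *BdSCRM2* at -0.30 near the middle.

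The partners differed from each other. *BdSCRM2* (BdiBd21-3.2G0762000) had 844, 719 and 651 counts in the libraries labelled protoplasted, or 33.0, 24.6 and 23.2 TPM. The other libraries had 495, 759 and 679 counts, or 25.7, 29.2 and 26.6 TPM. The groups overlapped on both scales. The log2 fold change was -0.30 ± 0.14 (SE; edgeR, adjusted p = 0.0648) and did not pass the threshold. This depended on 1 library and on the scaling. Without replicate 1 labelled protoplasted the value was -0.43 and passed the threshold (adjusted p = 0.00375 from edgeR), and with scaling by library size alone it was 0.077. That scaling moved the median of all genes by 0.38, and relative to this median *BdSCRM2* stood at -0.35 under both scalings.

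*BdICE1*, the second partner, was higher in the libraries labelled protoplasted, with 143, 110 and 113 TPM against 18.2, 24.6 and 20.8 TPM. The groups were well separated. Its log2 fold change was 2.23 ± 0.14 (SE; edgeR, adjusted p = 5.63e-07). The order of the partners by TPM was therefore not the same in the groups. *BdICE1* stood at 4.34, 4.45 and 4.85 times the TPM of *BdSCRM2* in the libraries labelled protoplasted and at 0.707, 0.844 and 0.782 times in the others. The difference between the partners was not tested.

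By TPM, the order of the 5 genes in the libraries labelled protoplasted was *BdSCRM2* (27.0 ± 5.30, SD, n = 3), *BdFAMA* (9.36 ± 1.52), *BdMUTE* (9.18 ± 4.22), *BdSPCH1* (2.06 ± 0.303) and *BdSPCH2* (1.51 ± 0.0912). *BdFAMA* and *BdMUTE* did not differ beyond their spread, whereas the libraries of the other neighbours in this order did not overlap. *BdSCRM2* lay above 82.5% of the 31328 genes with counts and a length, *BdFAMA* above 63.2%, *BdMUTE* above 62.8%, *BdSPCH1* above 40.0% and *BdSPCH2* above 36.6%. In the libraries labelled non-protoplasted, *BdSCRM2* (27.2 ± 1.82) and *BdFAMA* (4.08 ± 0.753) again led, followed by *BdMUTE* (0.503 ± 0.174). The *SPCH* genes came last at 3 counts or fewer per library and could not be ordered. These TPM values rest on gene lengths given by the authors, from 816 bases for *BdMUTE* to 2979 bases for *BdSCRM2*, and whether introns are included is not stated.

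The summed level of the 5 genes was 61.6, 42.1 and 43.5 TPM in the libraries labelled protoplasted and 30.9, 33.4 and 31.2 TPM in the others. Its make-up differed between the groups as well. *BdSCRM2* made up 53.6%, 58.5% and 53.3% of the sum in the first group and 83.1%, 87.4% and 85.3% in the second. The share of *BdMUTE* was 22.3%, 12.8% and 19.4% against 1.23%, 2.10% and 1.38%. *BdFAMA* kept a share of 18.0%, 20.7% and 19.0% against 15.7%, 10.0% and 12.9%, and the groups did not overlap.

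**Figure D3:**
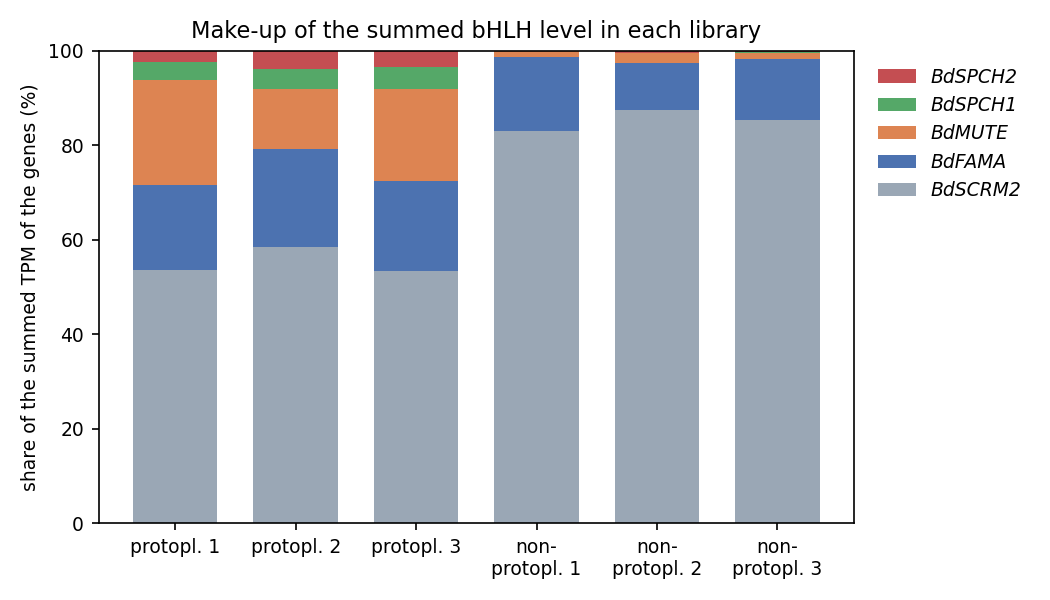
Share of each bHLH gene in the summed TPM of the 5 genes (vertical axis, percent) in each of the 6 libraries. *BdSCRM2* fills 53.3% to 58.5% of the bars labelled protoplasted and 83.1% to 87.4% of the others, while *BdMUTE* and the *SPCH* genes are thin or invisible in the latter.

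Ratios within a library need no scaling between libraries, and 3 of them were compared. *BdMUTE* stood at 1.24, 0.618 and 1.02 times the TPM of *BdFAMA* in the libraries labelled protoplasted and at 0.0780, 0.209 and 0.107 times in the others. By TPM, neither of these 2 consecutive factors was thus the higher in every library of the first group, and *BdFAMA* exceeded *BdMUTE* in every library of the second. This order in the first group depends on the gene lengths. In counts, which are not divided by length, *BdFAMA* exceeded *BdMUTE* in every library of both groups. The mean log2 ratio was -0.12 ± 0.52 (SD, n = 3) against -3.06 ± 0.73 (SD, n = 3), a difference of 2.94. A two-sided exact permutation test gave p = 0.1, the smallest that 3 libraries against 3 can give.

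The log2 ratio of *BdSPCH2* to *BdFAMA*, an early to a late factor, was -2.95, -2.43 and -2.47 in the libraries labelled protoplasted and -4.48 and -5.29 in replicates 2 and 3 of the others. Replicate 1 labelled non-protoplasted had 0 counts of *BdSPCH2* and gave no ratio. The difference of the means was 2.27, with an exact permutation p of 0.2, the smallest for 3 libraries against 2. With 1 added to each TPM, which also gave replicate 1 a ratio, the difference was 0.18. The share of *BdSPCH1* in the summed TPM of the *SPCH* genes was 62.2%, 52.1% and 58.1% in the libraries labelled protoplasted, so that *BdSPCH1* was the higher of the pair in each. In the others it was 0% and 30.3%, from 3 counts in each library for both genes together, and replicate 1 had none. The difference of 42.3 percentage points had an exact permutation p of 0.2 and rests on these few counts. It was 6.44 percentage points with 1 added to each TPM. Over these 3 ratios, 0 had a Benjamini-Hochberg adjusted p under 0.05, since no raw p could go below 0.1.

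**Figure D4:**
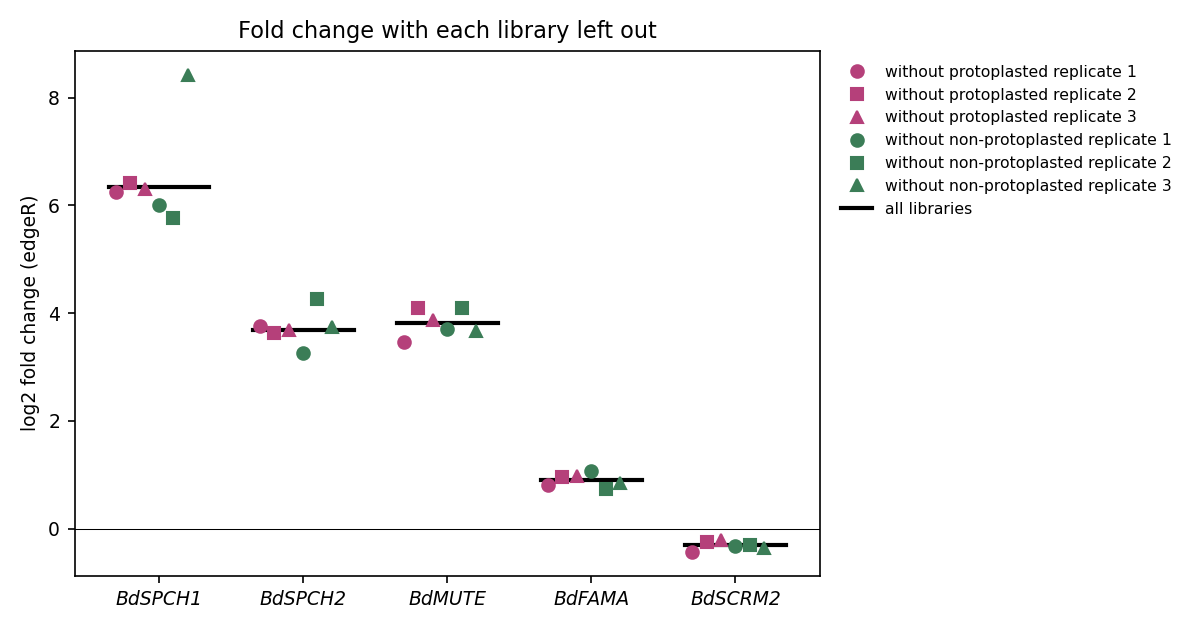
Log2 fold change of each bHLH gene from edgeR (vertical axis) with each library left out in turn (points) and with all libraries (black lines). *BdSPCH1* spreads from 5.77 to 8.43, highest without replicate 3 labelled non-protoplasted, which held its only count in that group, while *BdSCRM2* remains between -0.43 and -0.21.

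Of the 5 genes, 4 were highest in replicate 1 among the libraries labelled protoplasted, all but *BdSPCH2*. The same held for 39.2% of all genes tested. The highest of these 3 libraries exceeded the lowest 2.41-fold in CPM for *BdMUTE*, and 1.19-fold to 1.34-fold for the other 4 genes.

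The other genes of the stomatal pathway moved in both directions. Of 29 genes in the list taken from the study, 28 were tested, 17 were higher and 7 were lower in the libraries labelled protoplasted, with a median log2 fold change of 1.20. Over all genes tested, 38.7% were higher and 38.3% lower, and these shares also stand beside the counts for each role below, which come from few genes. The list holds *BdSLAH2*, which the study uses as a marker of the shoot apex and early vasculature, and without it 17 genes were higher and 6 lower of 27 tested, a comparison added after seeing the data. Ligands come first in the pathway. *BdEPF2-2* had a log2 fold change of 2.91 ± 0.26 (SE; edgeR, adjusted p = 6.07e-06) and *BdSTOMAGEN-1* of 1.73, whereas *BdEPF2-1* was at 0.13 (adjusted p = 0.692 from edgeR). In *Arabidopsis*, EPF2 peptides limit entry into the lineage and STOMAGEN promotes it. The peptidase gene *BdSDD1*, at 5.00 ± 0.36 (SE), was the only gene of this list between *BdMUTE* and *BdSPCH1* apart from *BdGELP1*. The *Arabidopsis* SDD1 is a subtilisin-like protease that lowers stomatal density.

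Of 6 receptor genes, 3 were higher and 2 were lower. *BdTMM*, which in *Arabidopsis* encodes a receptor-like protein that modulates ERECTA-family signalling, had 51, 74 and 76 counts against 1, 4 and 5. The groups did not overlap, and its log2 fold change was 3.79. *BdERECTA* and *BdERL1* were at 1.28 and 1.70. The co-receptor genes *BdSERK1/2-like1* and *BdSERK1/2-like3* were lower, the first with 487, 421 and 358 counts against 2262, 2553 and 2718 and the second at a log2 fold change of -1.65, while *BdSERK1/2-like2* was at -0.17 and did not pass the test.

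The kinase cascade relays the receptor signal, and in *Arabidopsis* its MAP kinases phosphorylate SPCH. Of its 6 genes, 4 were lower and 2 higher, beside 38.3% and 38.7% of all genes tested. *BdMPK3-like* had 46, 38 and 41 counts against 18067, 20135 and 21129, a log2 fold change of -9.42 ± 0.23 (SE; edgeR, adjusted p = 4.18e-09). *BdMPK6-like* was higher at 0.94. *BdMKK4/5-like1* and *BdMKK4/5-like2* were lower at -1.86 and -3.74. *BdYDA2* was higher at 0.81, and *BdYDA1* was lower at -0.59, although it was at -0.21 and did not pass the test with library size alone (adjusted p = 0.244 from edgeR), nor on log2(TPM + 1) and log2(TPM + 0.1) in limma.

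Of 4 tested genes linked to subsidiary cells, 4 were higher, from *DUF567* at 1.31 to *BdPAN2* at 3.40, which encodes a polarity receptor-like protein. *BdCST1* had at most 9 counts in a library and was not tested. Of the markers of the guard cell lineage, *BdGELP1* was higher at 3.98 and the LRR kinase gene at 1.54. The ligand gene *BdEPF2-1*, which the study also uses as a marker of this lineage, was at 0.13 and did not pass the test. *BdSLAH2*, the shoot apex and early vasculature marker, encodes a member of the SLAC1-type anion channel family and was lower at -6.71. The value of the LRR kinase gene did not pass the test without replicate 2 labelled non-protoplasted (1.29, adjusted p = 0.0537 from edgeR). *BdMYB60-like* and *BdSCAP1-like*, whose *Arabidopsis* relatives act in guard cells, were higher at 1.50 and 1.12. *BdMYB88-like* and *BdTSO1-like* were at -0.14 and -0.18 and did not pass the test, but *BdTSO1-like* did without replicate 1 labelled protoplasted (-0.31, adjusted p = 0.0361 from edgeR).

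**Figure D5:**
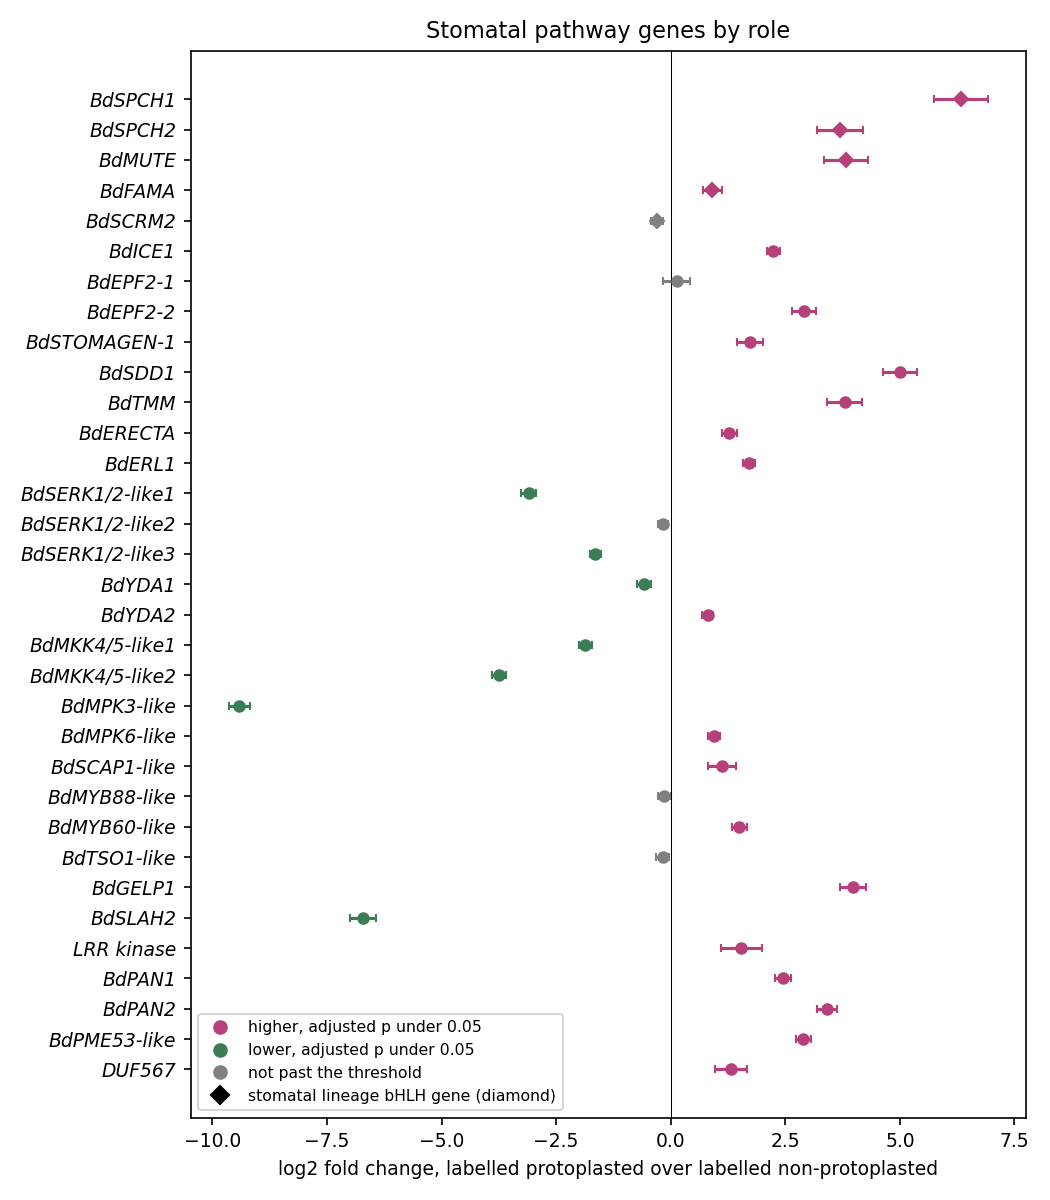
Log2 fold change (horizontal axis) with 1 standard error for the 5 bHLH genes (diamonds) and 28 other tested genes of the stomatal pathway (circles), from the stage factors at the top to the subsidiary cell genes at the bottom. Colour gives the direction of genes past an adjusted p of 0.05. The kinase cascade holds the lowest value, *BdMPK3-like* at -9.42.

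The study lists predicted target genes that are exclusive to or preferred by *BdMUTE* or *BdFAMA*, taken from its single-cell data. The many targets shared by both factors are not in these lists. Of 51 such targets of *BdMUTE*, 50 were tested, 29 were higher and 9 were lower, with a median log2 fold change of 0.59. Of 31 such targets of *BdFAMA*, which include *BdMUTE*, 29 were in the table and tested, 19 were higher and 7 were lower, with a median of 0.73. Over all genes tested, 38.7% were higher and 38.3% lower, and the median was 0.042.

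The genes of the study's gene table most like each bHLH gene over the 6 libraries were found by Pearson's r of log2 CPM, among 71 genes with counts. The libraries fall into 2 groups, so that r mostly follows the difference between them, and it is given as a description. *BdSPCH1* was most like *BdWOX3B* (r = 0.996) and *BdSLP1-like1* (r = 0.994), both listed as hair and silica cell genes. *BdSPCH2* was most like *BdTMM* (r = 0.990) and *BdTCP4-like* (r = 0.986). *BdMUTE* was most like the two-component response regulator gene *2cRR* (r = 0.994) and *BdMYB60-like* (r = 0.992). *BdFAMA* was nearest to *BdSLP1-like3* (r = 0.990) and *BdSDD1* (r = 0.959), and *BdSCRM2* to *BdYDA1* (r = 0.934) and *BdMYB88-like* (r = 0.900).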

How the data were processed

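RNA of 6 libraries was sequenced, 3 per group. Per the study's methods and labels, reads were checked with FastQC, mapped to the genome of Bd21-3 with bowtie2 and counted per gene with summarizeOverlaps. Bowtie2 does not align a read across an intron, and the strand setting and the treatment of shared reads are not given in the sources used here. The authors deposited raw counts. Further deposited columns hold a signal (counts per kilobase of gene length) and TPM, in which this signal is scaled to an equal sum in every library. The authors' mean TPM columns were not used, and 0 columns of single libraries were left unused. DESeq2 was the authors' test.

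Counts were compared in R 4.3.3 with edgeR 4.0.16 (filterByExpr with a minimum count of 10, TMM, glmQLFit and glmQLFTest, prior count 0.125, Benjamini-Hochberg adjustment over the 23677 genes tested, threshold 0.05). Standard errors (SE) were approximated from F as log2 fold change over its root. Ratios within libraries were compared with two-sided exact permutation tests. Counting intervals are exact (95%), and 3 counts were taken as the floor. Alternatives were DESeq2 1.42.0, limma 3.58.1 (voom, and trend on log2(TPM + 1) and log2(TPM + 0.1)), other scalings, filters and prior counts, a replicate block, the exchanged groups, and each library left out.

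The 5 members and all gene lists were chosen with earlier results of these data known. Named genes were the 5 members, genes of the study's stomatal pathway list and the 2 genes most like each member by r of log2 CPM (prior count 2). Some markers of other cell types were also named, being single, undetected or the largest part of a summed level. RefSeq names matched 0 of the 5 members. Sequences and coordinates were not used here.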

Additional observations from a re-analysis of the deposited data

How the results depend on the processing

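With the groups taken from the treatment entry, all directions were exchanged, with log2 fold changes of -6.34 for *BdSPCH1*, -3.69 for *BdSPCH2*, -3.82 for *BdMUTE*, -0.91 for *BdFAMA* and 0.30 for *BdSCRM2*, 0 bHLH genes higher and 4 lower, and 7 other pathway genes higher and 17 lower. *BdSCRM2* was the only one of the 5 whose call otherwise changed. It was at -0.37 (adjusted p = 0.0351 from edgeR) with RLE normalization and at -0.33 (adjusted p = 0.0440 from edgeR) with at least 10 counts in every library, so that 1 bHLH gene was lower in each, and at 0.077 with library size only (adjusted p = 0.626 from edgeR). The filter at 10 counts in every library kept 2 of the 5 genes, with 1 higher, and gave no value for *BdSPCH1*, *BdSPCH2* and *BdMUTE*. With library size only, 61.2% of all called genes were higher, against 50.2% with TMM. With 1 added to each TPM, the log2 differences of *BdSPCH1*, *BdSPCH2* and *BdMUTE* were 1.59, 1.21 and 2.68, since the pseudocount is near their levels. With each library left out, the log2 fold change ranged from 5.77 to 8.43 for *BdSPCH1*, 3.26 to 4.26 for *BdSPCH2*, 3.47 to 4.10 for *BdMUTE*, 0.73 to 1.08 for *BdFAMA* and -0.43 to -0.21 for *BdSCRM2*. The number of bHLH genes lower ranged from 0 to 1, the 1 being *BdSCRM2* without replicate 1 labelled protoplasted, and 4 were higher throughout. The difference in the log2 ratio of *BdMUTE* to *BdFAMA* ranged from 2.62 to 3.34 and was 1.65 with 1 added to each TPM. The log2 ratio of *BdSPCH2* to *BdFAMA* differed by 1.86 to 2.68, and by 0.18 with 1 added to each TPM. The share of *BdSPCH1* differed by 27.2 to 57.5 percentage points, and by 6.44 with 1 added. The replicate numbers were not shown to pair the libraries, with correlations of 0.121, 0.038 and 0.083 between the deviations of equal numbers, although 5 of 6 libraries correlated best with their own number. A replicate block left 4 bHLH genes higher and changed no call, with 6.32 for *BdSPCH1*, 3.72 for *BdSPCH2*, 3.72 for *BdMUTE*, 0.91 for *BdFAMA* and -0.32 for *BdSCRM2*. Depth limits *BdSPCH1* and *BdSPCH2* most, which had 0 to 3 counts per library labelled non-protoplasted.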
